A study of Mus musculus with 18 samples.

Results

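Transcripts of the pituitary gland were followed in polyA RNA-seq libraries of mouse hemibrains. The group was defined by symbol as 10 genes: the hormone genes Gh, Prl, Pomc, Cga, Lhb, Tshb and Fshb, the transcription factor genes Pitx1 and Pou1f1, and the receptor gene Ghrhr. All 10 were among the 52433 symbols of the raw count table that entered the library sizes, and 5 of them (Gh, Prl, Pomc, Cga and Lhb) passed the filter on low counts that left 18891 genes for testing across all genes. The libraries came from 18 mice aged 12 months on a C57bl/6 strain background, in which human APOE had replaced the mouse gene by gene targeting. Mice were homozygous APOE2/APOE2, APOE4/APOE4 or APOE3/APOE3, 6 mice per genotype, with 3 females and 3 males in each. The APOE2 mice and the APOE4 mice were each compared with the APOE3 mice, which carry the commonest human isoform, and with each other, and every mouse carried a human isoform, so there was no mouse with the mouse gene. The labels' protocols describe the tissue as a flash-frozen hemibrain and do not say whether the pituitary stayed with the brain.

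The anterior pituitary holds cell types that are each known for a hormone. Somatotrophs make growth hormone and lactotrophs make prolactin, and both types, with the thyrotrophs, depend on the transcription factor POU1F1. Gonadotrophs and thyrotrophs share the glycoprotein hormone alpha subunit encoded by Cga and add a beta subunit of their own, from Lhb and Fshb or from Tshb. Corticotrophs and the intermediate lobe make POMC, the precursor of ACTH and melanocyte-stimulating hormone, and neurons of the hypothalamic arcuate nucleus transcribe Pomc as well, so Pomc reads alone do not mark the gland. Somatotroph and lactotroph transcripts are known to be very abundant in the gland.

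Library totals ran from 43681710 to 59207594 counts, and mitochondrial transcripts took 3.21% to 4.73% of them. A brain marker list of 10 genes (among them Snap25, Syt1, Rbfox3, Slc17a7, Gad1, Gfap, Aqp4, Mbp and Cx3cr1) summed to between 10958 and 12672 CPM in APOE2 libraries, 10538 and 11671 CPM in APOE4 libraries and 10455 and 11374 CPM in APOE3 libraries. CPM here is the read count scaled to library size with TMM factors. At these depths 3 reads, taken as the floor, equal between 0.0507 and 0.0687 CPM depending on the library. Intervals and floors cover counting error only.

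The summed level of the 10 pituitary transcripts differed 86.8-fold between the highest and the lowest library. It averaged 4.70 ± 3.02 CPM in APOE2, 36.3 ± 67.4 CPM in APOE4 and 11.8 ± 13.4 CPM in APOE3 libraries (SD, n = 6 each). The range was 1.99 to 10.3 CPM in APOE2, 2.33 to 173 CPM in APOE4 and 2.07 to 29.5 CPM in APOE3, so the ranges overlapped at their low ends. The SD of APOE4 and of APOE3 exceeded the mean. By sex, the sum averaged 9.02 ± 11.4 CPM in females and 26.1 ± 55.4 CPM in males (n = 9 each). Within genotypes the sexes went opposite ways: APOE2 females averaged 2.84 ± 1.29 CPM and APOE2 males 6.56 ± 3.28 CPM, APOE4 females 3.38 ± 1.04 CPM and APOE4 males 69.2 ± 90.0 CPM, and APOE3 females 20.9 ± 14.1 CPM and APOE3 males 2.72 ± 0.68 CPM (n = 3 each). In bulk tissue, fewer pituitary cells and less RNA per cell cannot be told apart. A list of 15 hypothalamic releasing and neurosecretory hormone genes summed to 254 to 319 CPM over the 18 libraries. Several of its genes, such as Sst, Npy and Crh, are known to be transcribed in cortex and hippocampus too, so the sum does not measure hypothalamus alone.

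**Figure D1:**
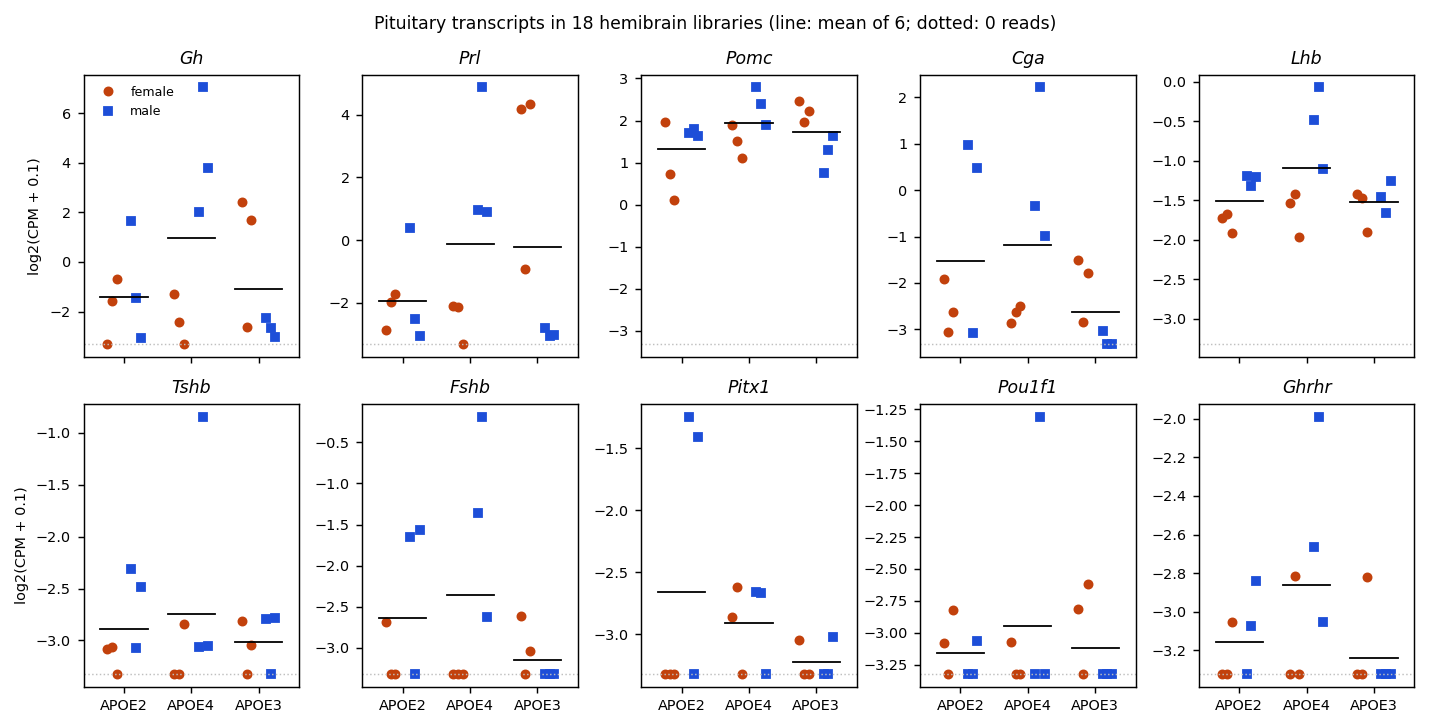
Level of each of the 10 pituitary transcripts in every library, as log2(CPM + 0.1) on the vertical axis (each panel has its own scale), by genotype on the horizontal axis, females as orange circles and males as blue squares, with the mean of 6 as a black line and 0 reads as a dotted line. APOE4 replicate 5, a male, is the highest library for Gh, Prl, Cga, Lhb, Tshb, Fshb, Pou1f1 and Ghrhr, while Pitx1 is highest in APOE2 replicate 4 and Pomc in APOE4 replicate 4.

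Growth hormone and prolactin led in level and in spread. Gh (chromosome 11, 106300271 to 106301865, minus strand, GRCm38) had 0, 12 and 25 reads in the APOE2 females and 180, 14 and 1 in the APOE2 males. It had 16, 4 and 0 reads in the APOE4 females and 203, 6940 and 681 in the APOE4 males. In APOE3 it had 247, 3 and 149 reads in females and 5, 3 and 1 in males. The 3 APOE4 males, 2 of the APOE3 females and 1 APOE2 male therefore held over 100 Gh reads, and the other 12 libraries held 25 or fewer. APOE4 replicate 5 alone held 81.8% of the 8484 Gh reads of the study.

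Prl (chromosome 13, 27057570 to 27065205, plus strand, GRCm38), which encodes the hormone of lactotrophs, was high in the same 6 libraries. The APOE2 females had 2, 8 and 10 Prl reads and the APOE2 males 72, 4 and 1. The APOE4 females had 7, 6 and 0 and the APOE4 males 96, 1539 and 87. The APOE3 females had 859, 21 and 965 and the APOE3 males 2, 1 and 1. The APOE4 males averaged 10.9 ± 15.8 CPM of Prl and 49.8 ± 70.97 CPM of Gh, and the APOE3 females 12.9 ± 10.9 CPM of Prl and 2.80 ± 2.597 CPM of Gh (SD, n = 3 each). Thyrotroph and somatotroph companions of these hormones were near the floor. Tshb, the thyrotropin beta subunit (chromosome 3, 102775465 to 102782718), had 24 reads in APOE4 replicate 5 and 6 or fewer in each of the other libraries. Pou1f1 (chromosome 16, 65520511 to 65535005), whose protein switches on Gh, Prl and Tshb, had 16 reads in APOE4 replicate 5 and 3 or fewer elsewhere. Ghrhr (chromosome 6, 55376295 to 55388530), the receptor through which hypothalamic GHRH acts on somatotrophs, had 8 reads there and 3 or fewer elsewhere.

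Cga and Fshb reads did not follow Prl reads in every library. The promoter of Prl is therefore printed here beside those of the gonadotroph genes Cga, Lhb and Fshb. Each is the 250 bases before the start site on the gene's own strand, from RefSeq on GRCm38.p6, and 7 of the 10 members had an entry. Capitals mark matches to TATNCAT (the POU1F1 recognition sequence), TGNCCTTG (recognized by NR5A1, the steroidogenic factor of gonadotrophs), TAATCC or TAAGCC (recognized by PITX1) and TATAAA (the TATA box), searched on both strands.
Prl (chr13:27057320-27057569, plus strand): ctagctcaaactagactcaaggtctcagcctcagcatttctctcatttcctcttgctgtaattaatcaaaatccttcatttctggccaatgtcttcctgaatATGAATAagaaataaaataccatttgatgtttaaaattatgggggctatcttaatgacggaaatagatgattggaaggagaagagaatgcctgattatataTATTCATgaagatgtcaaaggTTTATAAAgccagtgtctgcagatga
Cga (chr4:34893529-34893778, plus strand): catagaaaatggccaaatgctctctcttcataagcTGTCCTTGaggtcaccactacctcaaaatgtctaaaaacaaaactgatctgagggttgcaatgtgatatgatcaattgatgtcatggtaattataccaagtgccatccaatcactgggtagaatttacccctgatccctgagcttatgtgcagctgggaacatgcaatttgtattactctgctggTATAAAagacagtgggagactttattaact
Lhb (chr7:45420696-45420945, plus strand): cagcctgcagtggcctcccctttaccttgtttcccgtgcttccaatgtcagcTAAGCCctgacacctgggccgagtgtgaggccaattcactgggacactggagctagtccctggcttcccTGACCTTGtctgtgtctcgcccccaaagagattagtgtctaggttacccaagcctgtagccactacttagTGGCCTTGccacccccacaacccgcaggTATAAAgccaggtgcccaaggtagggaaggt
Fshb (chr2:107059652-107059901, minus strand): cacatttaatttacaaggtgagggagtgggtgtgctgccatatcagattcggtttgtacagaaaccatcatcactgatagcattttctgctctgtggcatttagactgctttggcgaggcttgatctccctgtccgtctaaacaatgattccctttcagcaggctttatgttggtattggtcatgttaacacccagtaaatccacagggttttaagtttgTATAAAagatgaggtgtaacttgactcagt
In the Prl window TATNCAT began 148 bases (on the other strand) and 47 bases before the start, and the capitals nearest the start are overlapping matches to TATAAA on the 2 strands. TGNCCTTG stood once in the Cga window, 215 bases before the start, and at 129 and 59 bases in the Lhb window, which also held TAAGCC at 198 bases. Apart from TATAAA, the Fshb window held none of these letters. Of 32851 promoter windows of this length, 7.92% held TATNCAT, 5.53% TGNCCTTG, 6.25% TAATCC, 8.20% TAAGCC and 12.4% TATAAA. These matches describe the sequence only.

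Gonadotroph transcripts did not follow Gh and Prl in every library. Cga (chromosome 4, 34893779 to 34907370, plus strand), the shared alpha subunit, had 9, 1 and 3 reads in APOE2 females and 111, 1 and 66 in APOE2 males. It had 2, 3 and 4 reads in APOE4 females and 36, 240 and 20 in APOE4 males, and 12, 2 and 9 in APOE3 females and 1, 0 and 0 in APOE3 males. The highest libraries were again the APOE4 males, joined by APOE2 replicates 4 and 6. Fshb (chromosome 2, 107056140 to 107059656), the beta subunit of follicle-stimulating hormone, had 3, 0 and 0 reads in APOE2 females and 13, 0 and 12 in APOE2 males, 0 in every APOE4 female and 15, 41 and 3 in APOE4 males, and 3, 0 and 1 in APOE3 females and 0 in every APOE3 male. No Fshb read was found in 10 of the 18 libraries. Pitx1 (chromosome 13, 55825051 to 55836192), whose protein is needed early in pituitary and hindlimb development, had 19 and 14 reads in APOE2 replicates 4 and 6 and at most 3 in any other library.

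APOE2 replicate 6, a male, had 66 Cga, 12 Fshb, 14 Pitx1 and 4 Tshb reads beside 1 Gh and 1 Prl read. Its 17 Lhb reads were close to the 16 of APOE2 replicate 5, which had 1 Cga and 0 Fshb reads. That is 3300 Cga reads per 100 reads of Gh and Prl, against 44.05 in APOE2 replicate 4, 12.0, 2.83 and 2.604 in the 3 APOE4 males, and 1.08 and 0.808 in APOE3 replicates 4 and 6, the 2 APOE3 females with over 100 Gh reads. The part of the gland around the median eminence, the pars tuberalis, is known to transcribe Cga and Tshb with little Gh or Prl. Gnrhr, the gonadotroph receptor for GnRH, was added once its values had been seen. It had 5 reads in APOE4 replicate 5, a total of 2 reads in the 6 APOE2 libraries and 0 in the 6 APOE3 libraries.

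**Figure D2:**
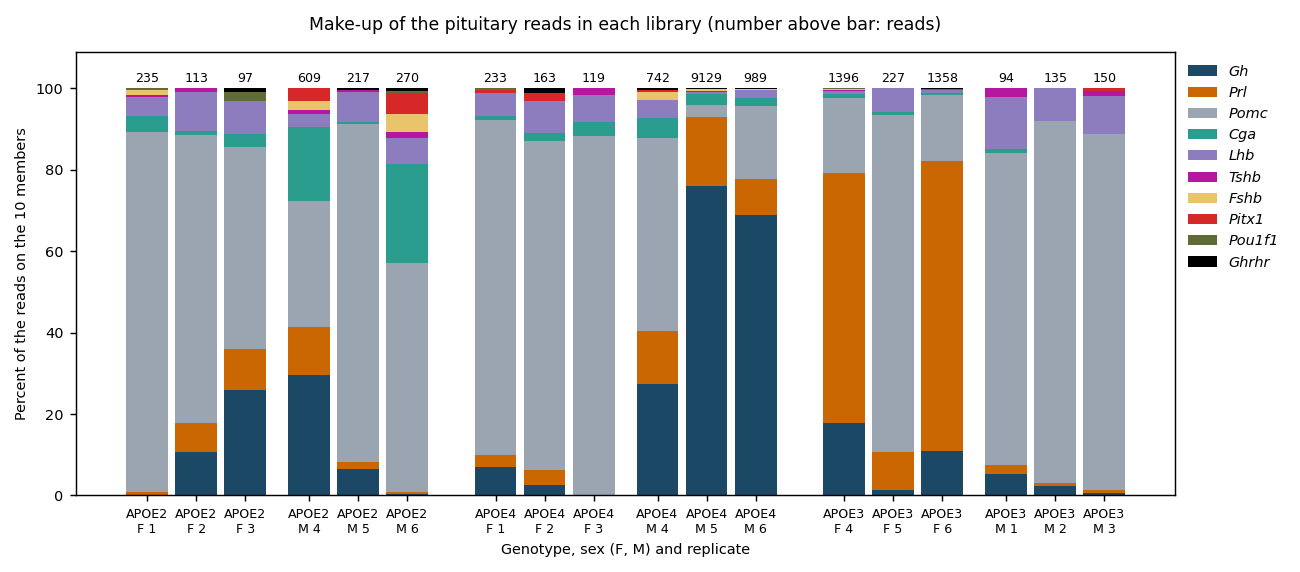
Make-up of the reads on the 10 pituitary transcripts in each library, as a percent of those reads on the vertical axis, with genotype, sex and replicate on the horizontal axis and the number of reads above each bar. Gh and Prl fill most of the bar in APOE4 replicates 5 and 6 and in APOE3 replicates 4 and 6, while APOE2 replicate 6 combines Pomc with Cga, Fshb and Pitx1.

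Pomc and Lhb were the steadiest of the tested members. Pomc (chromosome 12, 3954951 to 3960642, plus strand) was read in all 18 libraries and was the commonest of the 10 transcripts in 14 of them. It had 208, 80 and 48 reads in APOE2 females and 188, 180 and 152 in APOE2 males, 192, 132 and 105 in APOE4 females and 353, 273 and 178 in APOE4 males, and 257, 188 and 220 in APOE3 females and 72, 120 and 131 in APOE3 males. Its mean level was 2.65 ± 1.12 CPM in APOE2, 4.01 ± 1.72 CPM in APOE4 and 3.46 ± 1.43 CPM in APOE3 (SD, n = 6 each). The library with 6940 Gh reads had 273 Pomc reads, inside the range of the rest. Pomc was highest, at 6.81 and 5.17 CPM in APOE4 replicates 4 and 5 and 5.44 and 4.61 CPM in APOE3 replicates 4 and 6. These had over 100 Gh reads, as did APOE2 replicate 4 and APOE4 replicate 6, at 3.17 and 3.63 CPM. On log2(CPM + 0.1), Pomc had a Pearson r of 0.61 with Prl and 0.51 with Gh (permutation adjusted p = 0.0190 and 0.0482). Spearman rho was 0.62 and 0.47 (permutation adjusted p = 0.0567 and 0.118). These values pool libraries with many and with few Gh reads. Within the 6 libraries with over 100 Gh reads, Pearson r of Pomc was 0.39 with Prl and 0.10 with Gh. Within the other 12 it was -0.05 with Prl and -0.46 with Gh. Lhb (chromosome 7, 45420820 to 45421897, plus strand), the luteinizing hormone beta subunit, had 8 to 45 reads per library, and all 18 libraries had some. Its annotated exons share 138 bases with Ruvbl2 on the opposite strand, a gene with 22054 reads, and the strand setting of the counting is not given in the sources used here, so an Lhb count may include Ruvbl2 reads. Cga overlaps Platr9 on the opposite strand, and Platr9 had 2 reads in all.

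Per kilobase of annotated exon, the mean level over the 18 libraries was 10.5 CPM for Gh, 2.91 for Prl, 2.56 for Pomc, 0.569 for Cga, 0.456 for Lhb, 0.0598 for Fshb, 0.0179 for Pitx1, 0.0113 for Tshb, 0.00723 for Pou1f1 and 0.00625 for Ghrhr. The order of the means rested on a few libraries. By the median, Pomc stood first at 2.49 CPM per kilobase, above Lhb at 0.396, Gh at 0.288, Prl at 0.102 and Cga at 0.0739, while Tshb stood at 0.00437 and Fshb, Pitx1, Pou1f1 and Ghrhr had a median of 0. Among the 18891 genes tested, Gh had the largest spread between mice beyond additive genotype and sex terms, with a coefficient of variation of 2.02. Prl was second at 1.94, Cga 5th at 1.46, Pomc 54th at 0.434 and Lhb 1463rd at 0.201. The common value over all genes was 0.0845 in that fit. With 1 mean per genotype and sex, the value for Gh was 1.49.

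Genotypes were compared with edgeR's quasi-likelihood test, which called none of these transcripts. Between APOE2 and APOE3, 738 of 18891 genes (3.91%) passed an adjusted p of 0.05, and 0 of the 5 tested members did. The largest difference was in Prl, at a log2 fold change of -4.58 ± 2.12 (SE), with an edgeR unadjusted p of 0.0482 and an adjusted p of 0.292. Prl averaged 0.285 ± 0.461 CPM in APOE2 against 6.48 ± 9.87 CPM in APOE3 (SD, n = 6 each), and the groups overlapped. DESeq2 called Prl in this comparison, at -5.54 with an adjusted p of 0.0212, and the authors' deposited table gives -5.54 with an adjusted p of 0.0214. In the DESeq2 fit Prl was the only member called, so its call depended on the tool. That fit also called more genes in all than the 738 of edgeR. Gh (-1.96 ± 2.16) and Pomc (-0.41 ± 0.37) had fitted values about 1 standard error below 0, Cga was at 2.45 ± 1.38 and Lhb at 0.03 ± 0.28, with edgeR adjusted p from 0.396 to 0.975.

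Between APOE2 and APOE4, 1233 genes (6.53%) were called and 0 of the 5 members. All 5 fitted values were negative. Gh stood at -4.57 ± 1.75, with 0.678 ± 1.17 CPM in APOE2 against 24.9 ± 52.5 CPM in APOE4, and Prl at -4.09 ± 2.02, with 0.285 ± 0.461 CPM against 5.51 ± 11.6 CPM (SD, n = 6 each). Lhb was at -0.66 ± 0.25, Pomc at -0.58 ± 0.37 and Cga at -0.65 ± 0.92, and the edgeR adjusted p of the 5 ran from 0.135 to 0.752. Without APOE4 replicate 5, 1903 genes were called and 0 members, and Gh was at -2.16, with an edgeR adjusted p of 0.395. Cga without that library turned to 0.92, with an edgeR adjusted p of 0.592.

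Between APOE4 and APOE3, 146 genes (0.773%) were called and 0 of the 5 members. Cga was at 3.10 ± 1.32 (edgeR unadjusted p = 0.0331, adjusted p = 0.493), with 0.972 ± 1.77 CPM in APOE4 against 0.0841 ± 0.109 CPM in APOE3 (SD, n = 6 each). Lhb was at 0.68 ± 0.26 (edgeR adjusted p = 0.377), Gh at 2.61 ± 1.90, Pomc at 0.17 ± 0.37 and Prl at -0.48 ± 2.09. The APOE4 and APOE3 ranges overlapped for all 5. These 3 comparisons share their groups pairwise, so their values are not independent of each other.

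**Figure D3:**
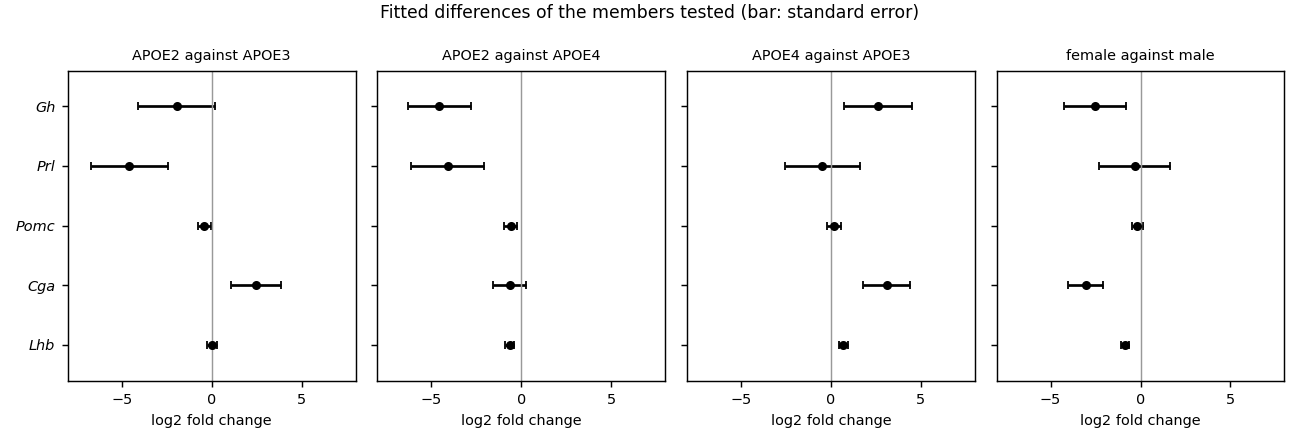
Fitted log2 fold change with its standard error (horizontal axis) of the 5 members that passed the filter on low counts, one panel per comparison, from edgeR over all 18 libraries. Every interval of Gh and Prl is wider than those of Pomc and Lhb, and Prl in APOE2 against APOE3 is at -4.58.

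Females and males were compared with genotype held in the fit. Of all genes 25 (0.132%) were called, and 0 of the 5 members. Lhb had the smallest p of the group, at -0.85 ± 0.22 (edgeR unadjusted p = 7.09e-04, adjusted p = 0.194), with 0.218 ± 0.0480 CPM in females against 0.401 ± 0.203 CPM in males (SD, n = 9 each). Cga was at -3.06 ± 0.99 (edgeR adjusted p = 0.404) and Gh at -2.55 ± 1.72, while Pomc (-0.17 ± 0.30) and Prl (-0.32 ± 1.98) lay within a standard error of 0. An exact permutation test of mean log2(CPM + 0.1), with labels permuted within sex or genotype, covered all 10 members in the 4 comparisons. It gave 0 of 40 tests with an adjusted p under 0.05 and 2 with an unadjusted p under 0.05, which were Lhb and Tshb between the sexes. Lhb differed by -0.59 (exact permutation p = 0.0015, adjusted p = 0.060) and Tshb by -0.49 (exact permutation p = 0.0373, adjusted p = 0.489), both lower in females.

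Because sex differences ran opposite ways in different genotypes, genotypes were also compared within a sex, 3 against 3. No member was called in the 6 comparisons. Within females, APOE2 against APOE3 called 382 genes (2.02%), APOE2 against APOE4 539 (2.85%) and APOE4 against APOE3 80 (0.423%). Within males, these were 368 (1.95%), 454 (2.40%) and 67 (0.355%). Prl in females was at -6.61 ± 1.82 for APOE2 against APOE3 (edgeR adjusted p = 0.111) and at -7.19 ± 1.94 for APOE4 against APOE3 (edgeR adjusted p = 0.253). In males, Gh was at -5.42 ± 1.39 for APOE2 against APOE4 (edgeR adjusted p = 0.0731) and at 9.54 ± 2.09 for APOE4 against APOE3 (edgeR adjusted p = 0.107), where each APOE4 male had at least 203 Gh reads and each APOE3 male at most 5.

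The test of the difference itself, a sex by genotype interaction, called 2 genes (0.0106%) with edgeR in APOE4 against APOE3. It called 0 (0%) in each of the other 2 genotype comparisons, and 0 members in any of the 3. Genes with an unadjusted edgeR p under 0.05 numbered 1287 in APOE4 against APOE3, 1094 between APOE2 and APOE3 and 485 between APOE2 and APOE4. For APOE4 against APOE3 the fold change in females minus that in males was -13.92 ± 3.08 for Gh (edgeR adjusted p = 0.284), -15.66 ± 3.02 for Prl (edgeR adjusted p = 0.220), -9.01 ± 3.16 for Cga (edgeR adjusted p = 0.579) and -1.88 ± 0.53 for Pomc (edgeR adjusted p = 0.416), in log2 units. DESeq2 called 41 genes in that interaction. Gh, Prl and Cga were among them, with DESeq2 adjusted p of 2.04e-04, 2.32e-08 and 0.0162. In the APOE2 against APOE3 interaction DESeq2 called 4 genes, Prl among them, with a DESeq2 adjusted p of 0.0347. Fitted values this large rest on groups with 0 to 5 reads in some libraries and are no bounds on a fold.

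The balance of prolactin and growth hormone reads was compared as a ratio within each library, which needs no scaling to library size. It differed between the sexes, which in APOE4 and APOE3 also differed in the letter that ends their sample titles. The log2 ratio of Prl to Gh reads, with 0.5 added to each, averaged 0.78 ± 1.61 in females and -1.29 ± 0.94 in males (SD, n = 9 each). Adding 0.5 pulls the ratio toward 0 in libraries with few reads of the 2 genes. The difference of 2.06 had an exact permutation p of 0.00325 with sex permuted within genotype (two-sided, adjusted p = 0.013 over 4 comparisons). The female mean was the higher one in each genotype: 0.16 ± 1.91 in APOE2 females and -1.001 ± 0.887 in APOE2 males, -0.20 ± 0.85 in APOE4 females and -2.07 ± 0.95 in APOE4 males, and 2.37 ± 0.50 in APOE3 females and -0.79 ± 0.68 in APOE3 males (SD, n = 3 each). In APOE2 the females' values were 2.32, -0.56 and -1.28, the first from 2 Prl and 0 Gh reads, and without that library their mean was -0.92. APOE4 replicate 3, a female with no read of either gene, entered at 0.00, a value that the 0.5 added to both counts fixes, and without it the sex difference was 2.16 (exact permutation adjusted p = 0.013). Leaving out each library in turn kept the sex difference between 1.82 and 2.32, with an exact permutation adjusted p of at most 0.034.

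The shares behind the ratio were firm in few libraries. Prl took 100%, 40% and 28.6% of the Gh and Prl reads in the APOE2 females and 28.6%, 22.2% and 50% in the APOE2 males. It took 30.4% and 60% in 2 APOE4 females, the third having no read of either gene, and 32.1%, 18.2% and 11.3% in the APOE4 males. In APOE3 it took 77.7%, 87.5% and 86.6% in females and 28.6%, 25% and 50% in males. The exact 95% interval was 75.1% to 80.1% in APOE3 replicate 4 and 17.3% to 19.0% in APOE4 replicate 5, but 1.26% to 98.7% where only 2 reads were found, and 6 libraries held 7 or fewer reads of the 2 genes together. The libraries with over 100 Gh reads were males in APOE2 and APOE4 and females in APOE3, so among these 6 the sex and the genotype cannot be told apart.

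Between genotypes, the ratio was lower in APOE4 than in APOE3, at -1.14 ± 1.30 against 0.79 ± 1.81 (SD, n = 6 each), a difference of -1.93 with an exact permutation p of 0.015 (adjusted p = 0.030). This call was lost when any of APOE3 replicates 4, 5 and 6 or APOE4 replicates 5 and 6 was left out, with differences from -1.55 to -1.73 and exact permutation adjusted p from 0.090 to 0.120. APOE2 averaged -0.42 ± 1.47 and differed from APOE3 by -1.21 (exact permutation p = 0.13, adjusted p = 0.173) and from APOE4 by 0.72 (exact permutation p = 0.345, adjusted p = 0.345). With 5 reads added in place of 0.5, the APOE2 against APOE3 difference was -1.41 with an exact permutation adjusted p of 0.0267, and without APOE2 replicate 1 it was -1.76 with an exact permutation adjusted p of 0.04.

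**Figure D4:**
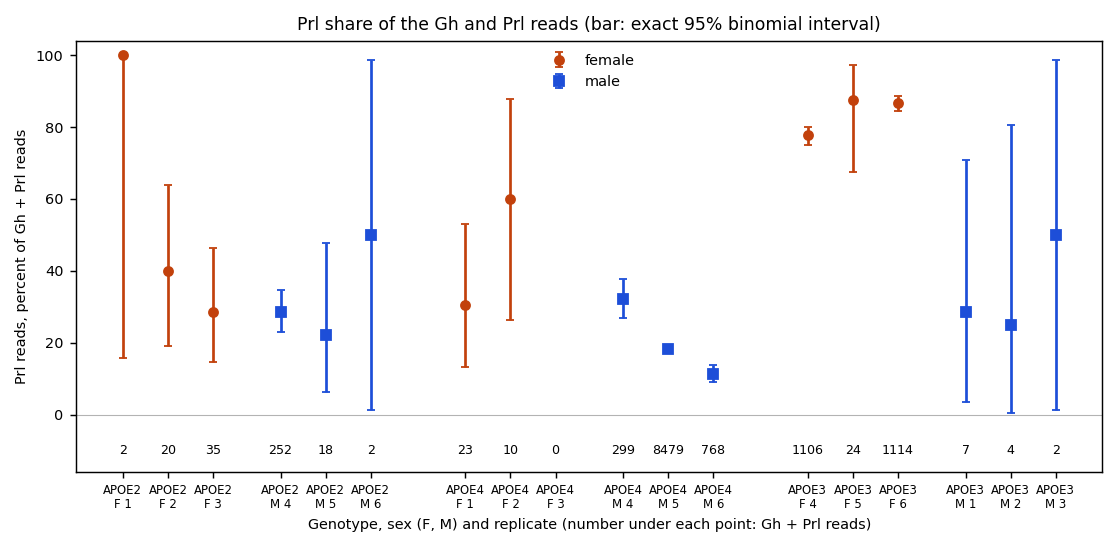
Prl reads as a percent of the Gh and Prl reads of each library (vertical axis) by genotype, sex and replicate (horizontal axis), with exact 95% binomial intervals as bars and the number of reads underneath. The 3 APOE3 females sit between 77.7% and 87.5%, above the APOE4 males at 11.3% to 32.1%, and one APOE4 female had no reads.

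Cga and Fshb, the 2 subunits of follicle-stimulating hormone, were correlated across libraries. On log2(CPM + 0.1) their Pearson r was 0.96 (permutation p = 1e-05, the smallest that 100000 resamples can give, adjusted p = 0.00045 over 45 member pairs) and their Spearman rho 0.90 (permutation adjusted p = 0.000225). Without APOE4 replicate 5 and APOE2 replicate 4, the libraries farthest from the median of Cga, r was 0.93. Within genotypes r was 0.99 in APOE2, 0.98 in APOE4 and 0.90 in APOE3 (exact permutation p = 0.0167, 0.00833 and 0.0333, n = 6 each), and within sexes it was 0.89 in females and 0.96 in males (permutation p = 0.0057 and 0.00044, unadjusted). Few reads lie behind some of these: in APOE3 Fshb had 3 and 1 reads in 2 libraries and 0 in the other 4, and 3 of 9 females had a Fshb read, with 3 at most. Within the 12 libraries under 100 Gh reads r was 0.97 and rested on 2 libraries, since the other 10 held no Fshb read.

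Gh and Prl reads fell into separate clusters, 12 libraries with 25 or fewer Gh reads and 6 with 149 or more, so no r over all libraries is given. Within the 6, r was 0.43 and rho 0.49 (exact permutation p = 0.436 and 0.356, n = 6), and within the 12, r was 0.55 and rho 0.73 (permutation p = 0.0629 and 0.00871, unadjusted). Without the 2 farthest of those 12, r was 0.42. Each genotype held libraries of both clusters. Within genotypes r was 0.96 in APOE2, 0.98 in APOE4 and 0.97 in APOE3 (exact permutation p = 0.00556, 0.00417 and 0.0292, unadjusted, n = 6 each). Within sexes r was 0.93 in females and 0.99 in males. Without the 2 farthest libraries of each sex it was 0.51 in females and 0.99 in males. Of the 45 member pairs, 5 had a Spearman permutation adjusted p under 0.05.

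**Figure D5:**
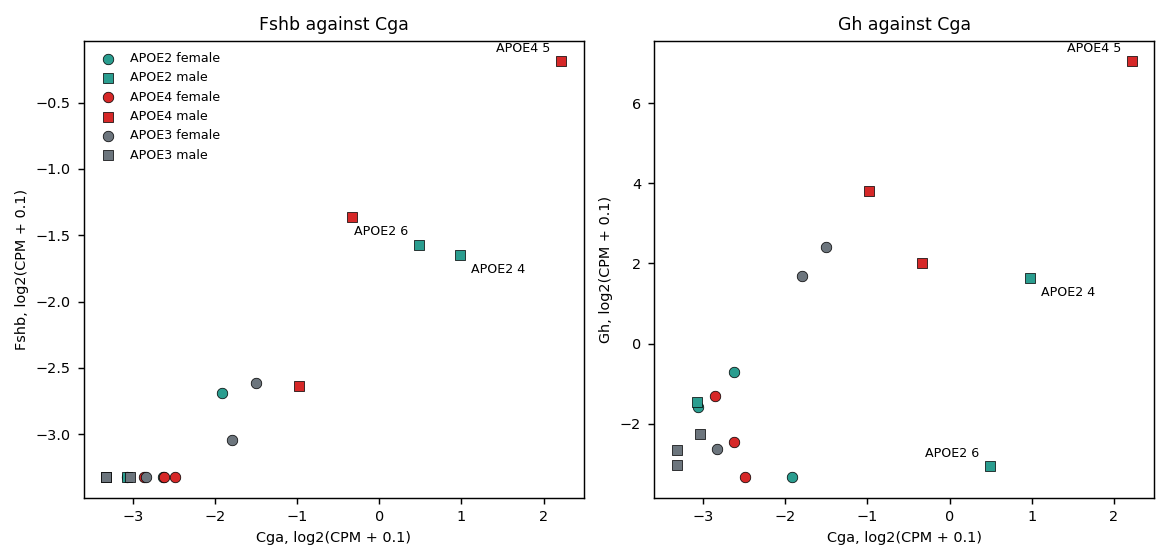
Fshb (left) and Gh (right) against Cga in the 18 libraries, all as log2(CPM + 0.1), coloured by genotype with females as circles and males as squares. Fshb follows Cga with r of 0.96, while APOE2 replicate 6 combines 66 Cga reads with 1 Gh read.

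Outside the 10 members, the genes whose level was ordered most like a member across the 18 libraries were found by Spearman rho among the tested genes, predicted genes left out. For Gh they included Dfna5 (0.76), Fastkd3 (0.71), Primpol (0.71) and Mx1 (0.71), and for Prl Fastkd3 (0.74), Dfna5 (0.72), Exoc3l (0.72) and Slc38a4 (0.71). Their ranges were narrower than that of Gh: Dfna5, the nearest to Gh, ran from 9.99 to 12.3 CPM while Gh ran from 0 to 132 CPM. For Cga the nearest was Epcam (0.82), an epithelial adhesion gene at 0.0563 to 0.590 CPM, before Fam166b (0.79), Polg2 (0.78), Det1 (0.77) and Mx2 (0.77). For Pomc they were Cngb1 (0.87), Kcne4 (0.84), the immediate early gene Btg2 (0.82), Edaradd (0.81) and Fzd5 (0.80). These are descriptions of 18 libraries that share their processing, with no test.

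Of 14 other lists of genes of the gland, its axes and nearby tissues, 8 had no gene called in the 4 comparisons and 6 had at least 1. All of these calls were in comparisons with APOE2, where 3.91% (against APOE3) and 6.53% (against APOE4) of all genes were called. Single calls in lists of this size are therefore not read as a result about a list. Of 15 other pituitary lineage regulators 11 were tested, and 1 was called: Pax7, a factor of the intermediate lobe and also of the midbrain, rose in APOE2 against APOE3 (log2 fold change 0.88 ± 0.25, edgeR adjusted p = 0.0492), with 1.08 ± 0.325 CPM against 0.589 ± 0.178 CPM (SD, n = 6 each). The list summed to 22.8 to 27.7 CPM in APOE2, 22.7 to 27.4 CPM in APOE4 and 22.2 to 25.1 CPM in APOE3. In APOE4 replicate 5 the member factors Pou1f1 and Pitx1 were at 0.303 and 0.0569 CPM. A change of that size would not show in these sums, so they cannot tell whether the list followed the hormones. The median fold change of the list was 0.27 in APOE2 against APOE3, against 0.00 over all genes. Of 11 other receptors and peptides of pituitary cells 9 were tested, and the somatostatin receptor gene Sstr2 fell in APOE2 against APOE3 (-0.30 ± 0.07, edgeR adjusted p = 0.0137) and against APOE4 (-0.29 ± 0.07, edgeR adjusted p = 0.0127), with 17.7 ± 0.748 CPM in APOE2, 21.6 ± 2.27 CPM in APOE4 and 21.8 ± 2.39 CPM in APOE3. Brain neurons transcribe Sstr2 as well.

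Of 8 hormone-processing and secretory granule genes, all tested, Scg5, which encodes the chaperone of a prohormone convertase, rose in APOE2 against APOE4 (0.18 ± 0.05, edgeR adjusted p = 0.0309), and the other 7 passed in no comparison. Of the 15 hypothalamic releasing and neurosecretory hormones 14 were tested, and Hcrt, the orexin precursor, fell in APOE2 against APOE4 (-0.39 ± 0.11, edgeR adjusted p = 0.0362). Of 10 hypothalamic regulators 9 were tested and 0 were called in the 4 comparisons, with the lowest edgeR adjusted p at 0.181. Their most abundant members, Lepr, Nkx2-1 and Otp, averaged 4.79, 2.30 and 2.26 CPM over all libraries. They summed with the rest of that list to 10.97 to 15.5 CPM in APOE2, 11.9 to 15.1 CPM in APOE4 and 10.5 to 12.9 CPM in APOE3.

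Downstream of the gland, Prlr, the prolactin receptor gene, rose in APOE2 against APOE3 (0.76 ± 0.15, edgeR adjusted p = 0.00484) at 21.9 ± 6.98 CPM against 12.7 ± 3.21 CPM (SD, n = 6 each), and it was the 1 gene called of 7 tested among 10 receptors for pituitary hormones. Prlr is known to be strong in the choroid plexus, and that tissue's 12 markers were all fitted higher in APOE2 against APOE3 with a median log2 fold change of 0.44, 0 called, and 8 with an unadjusted edgeR p under 0.05. They summed to 913 to 1937 CPM in APOE2, 912 to 1442 CPM in APOE4 and 1006 to 1367 CPM in APOE3, none of them being at 0, and their part in the Prlr result was not tested. No gene was called among 6 tested growth hormone response genes, in which Stat5b, Socs2 and Igf1 averaged 37.5, 17.1 and 11.1 CPM, or among 8 thyroid hormone response genes, in which Thra, Klf9 and Thrb averaged 676, 156 and 64.8 CPM.

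Markers of tissues that could come with a hemibrain were also counted. No gene was called in any of the 4 comparisons among the 12 choroid plexus markers (Ttr, Enpp2 and Kl averaging 629, 531 and 26.8 CPM), 12 meningeal markers (Igf2, Dcn and Col1a2 at 82.6, 26.9 and 15.4 CPM), 6 tested pineal markers (Rom1, Sag and Aanat at 5.46, 1.84 and 0.858 CPM), 7 blood markers (Hbb-bs, Hba-a1 and Hbb-bt at 50.5, 11.7 and 9.47 CPM) and 7 tested sensory ganglion markers (among them Pmp22 and Prph at 27.4 and 2.08 CPM). Blood markers summed to 63.8 to 206 CPM in APOE2, 47.5 to 81.4 CPM in APOE4 and 55.8 to 106 CPM in APOE3. In APOE2 against APOE4 all 7 were fitted higher, with a median log2 fold change of 0.80. All 7 had an unadjusted edgeR p under 0.05 there, and the lowest edgeR adjusted p was 0.0840. In APOE2 against APOE3 all 7 were fitted higher too, 2 with an unadjusted edgeR p under 0.05. Of the 10 brain markers, Gfap, the astrocyte filament gene, rose in APOE2 against APOE3 (0.36 ± 0.08, edgeR adjusted p = 0.00800) and against APOE4 (0.38 ± 0.08, edgeR adjusted p = 0.00381).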

How the data were processed

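PolyA RNA was sequenced from 18 hemibrains with a stranded single-read kit over shared lanes, per the labels' protocols. Raw counts of reads for each gene symbol were deposited by the authors. Per the submitters' processing notes, Trimmomatic, STAR 2.7.0 with GRCm38/mm10, featureCounts and DESeq2 were used. Neither annotation release nor strand setting is given in the sources used here. The log2 fold changes and p-values of the authors' DESeq2 genotype comparisons were deposited too, and the third table runs APOE3 over APOE4. A deposited normalized table was not used here.

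Of 52459 symbols, 26 had been turned into dates or numbers, took 0.304% to 0.322% of a library's counts, and were left out. Groups follow the labelled genotype and sex, and replicate numbers follow accession order. Nothing in the labels says that mice share a litter or batch, so p-values measure the spread between these mice. Sample titles end in letters that the labels do not explain. APOE2 titles have none or c, APOE4 titles d, e or f and APOE3 titles e, f or g. Whatever the letters mark therefore cannot be told apart from APOE2. In APOE4 and APOE3 every male title ends in e and no female title does. There it cannot be told apart from sex either, which bears on the sex and interaction results. Replicates differed beyond counting noise, with a chi-square per degree of freedom of 5.77 to 46.55. Positions and exon lengths come from GENCODE M21 on GRCm38.

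Genes were tested on the counts with edgeR 4.0.16 (R 4.3.3): TMM, filterByExpr, robust quasi-likelihood F test, sex and genotype as terms, all 18 libraries, with genes called below a Benjamini-Hochberg adjusted p of 0.05 over 18891 genes. Within-sex and interaction tests used 1 mean per genotype and sex. The standard error given with an edgeR fold change is its absolute log2 value over the square root of F. The edgeR test was checked on simulated data. Exact permutation tests used labels permuted within sex or genotype. Alternatives were other scalings and filters, DESeq2 1.42.0, limma 3.58.1 (voom), no sex or genotype term, the compared libraries alone, title letters e or f, other pseudocounts and leaving out each library. Splitting the Gh and Prl relation at 100 Gh reads was chosen after the data were seen. The text names all 10 members, up to 4 called genes of each list or else its 3 most abundant, and the 5 genes most like Gh, Prl, Pomc and Cga. Gnrhr was added once its values had been seen. Some genes that this rule selects are not reported here. Members and lists were chosen with earlier results of these data known.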

Additional observations from a re-analysis of the deposited data

Results flagged for a closer look

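In 10 of 30 combinations of a member and a genotype, 1 library lay far from the other 5 of its genotype. The rule flags about 1 in 20 groups by chance for independent, normally spread values. These groups are neither, since 6 of the 10 come from 1 library and some rest on 2 or 3 reads, so the share is not compared with that rate. The size is the gap to the nearest library as a share of the group's range. APOE4 replicate 5, a male, stood apart for 6 members: Gh with a gap of 0.895 of the range, Prl with 0.936, Cga with 0.854, Tshb with 0.914, Fshb with 0.628 and Pou1f1 with 0.938. It held 6940 Gh, 1539 Prl, 240 Cga, 24 Tshb, 41 Fshb and 16 Pou1f1 reads. APOE2 replicate 4, a male, stood apart for Gh (0.831, with 180 reads) and Prl (0.845, with 72 reads). The remaining cases rest on few reads: APOE3 replicate 4 for Fshb (0.670, with 3 reads) and APOE3 replicate 6 for Ghrhr (1, with 2 reads, the other 5 libraries having none).

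The genotype difference itself differed between females and males with DESeq2 for 4 member values that edgeR did not call. In APOE2 against APOE3, where DESeq2 called 4 genes in all, the fold change in females minus that in males was -10.53 for Prl. In APOE4 against APOE3, where DESeq2 called 41 genes in all, it was -14.03 for Gh, -15.79 for Prl and -9.35 for Cga. All are in log2 units. In the last comparison Gh had 16, 4 and 0 reads in APOE4 females and 203, 6940 and 681 in APOE4 males, against 247, 3 and 149 in APOE3 females and 5, 3 and 1 in APOE3 males.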

How the results depend on the processing

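No paired analysis was possible because the labels give no replicate numbers shared between genotypes or sexes. Of 556 refitted values of the 5 tested members, 523 kept their direction and side of the threshold. Members called stayed at 0 in the 4 main comparisons except for 1 with DESeq2 in APOE2 against APOE3. All genes called in APOE4 against APOE3 numbered 251 with DESeq2, and in females against males 53 without a filter and 51 with DESeq2. In the APOE2 against APOE3 interaction with sex, all genes called were 177 without a filter and 4 with DESeq2, and members called 4 and 1. In the APOE2 against APOE4 interaction these were 46 and 1 for all genes, and 2 members without a filter. In the APOE4 against APOE3 interaction they were 159 and 41 for all genes, 5 and 3 for members, and limma voom called 6 genes. The unfiltered interaction fit had an infinite prior degree of freedom, so it took no spread from a gene's own libraries. Directions turned for Gh in APOE2 against APOE3 with voom (0.52), Prl in APOE4 against APOE3 among mice whose titles end in e or f (1.28) and Prl between the sexes without a genotype term (0.19). In exact permutation differences a pseudocount of 0.01 turned Tshb (0.0385) and Pitx1 (-0.12) in APOE2 against APOE4, and Pou1f1 in APOE2 against APOE3 (0.0301) and between the sexes (0.46), and a pseudocount of 1 turned Prl in APOE4 against APOE3 (-0.18). The cause was not tested.

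Leaving out 1 library gave 947 to 1903 genes called in APOE2 against APOE4, 1903 without APOE4 replicate 5. Log2 fold changes that turned ran from -0.12 to 0.15 for Lhb in APOE2 against APOE3, from -1.24 to 0.92 for Cga in APOE2 against APOE4, from -0.029 to 0.35 for Pomc and from -2.46 to 0.62 for Prl in APOE4 against APOE3, and from -1.49 to 1.23 for Prl between the sexes. The Prl to Gh ratio in APOE2 against APOE3 was -1.41 with 5 reads added, called, and ran from -1.76 to -0.83 without 1 library, called without APOE2 replicate 1. In APOE4 against APOE3 it ran from -2.33 to -1.55. Tshb, Fshb, Pitx1, Pou1f1 and Ghrhr had 0 to 3 reads in most libraries, where differences were not detectable at this depth.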
